A study of Mus musculus with 15 samples.

Results

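The variable segments of the T cell receptor were examined in OT-I cells, CD8+ T cells of a mouse line that carries the genes of 1 rearranged receptor against the SIINFEKL peptide of ovalbumin. All genes of GENCODE M21 whose symbols begin with Trav (alpha chain) or Trbv (beta chain) were taken, pseudogenes included, which gave 163 of the 55536 genes in the count table. Of these, 128 were Trav segments (108 functional and 20 pseudogenes) and 35 were Trbv segments (22 functional and 13 pseudogenes). The OT-I receptor is stained by antibodies to Vα2 and Vβ5, which are encoded by the Trav14 group (9 segments) and the Trbv12 group (3 segments). The remaining 119 Trav and 32 Trbv segments are called the other segments here. OT-I donors were TCR transgenic animals lacking Rag1 or Rag2, by the study's methods, and their CD45.1+ T cells were transferred into wild-type C57BL/6J recipients, which have T and B cells of their own. Recipients in the Ag group received the SIINFEKL peptide with control rat IgG, and recipients in the Ag+Costim group received the peptide with agonist antibodies to OX40 and 41BB. The labels give the donor strain as OT-1 Tg on C57BL/6J, and mice of both sexes were used. Cells were sorted from spleen and lymph nodes, at day 4 by the labels and somewhat earlier by the study's text. The study's methods describe a gate on CD8, CD45.1, Vα2 and Vβ5, so the segment group in both receptor chains was itself a sorting criterion, or a purity check in another passage of the study. Each group had 5 libraries, described by the study as biological replicates. Libraries of naive cells were not analysed here.

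A T cell assembles each receptor chain by joining 1 variable segment to a joining segment, with a diversity segment between them in the beta chain, and the joined exon is spliced to a constant segment. The Rag1 and Rag2 enzymes cut the DNA for this joining, and a cell without them can display only a receptor supplied as a transgene. In a normal repertoire the variable segments are spread over many families, whereas in a transgenic clone nearly all receptor transcripts carry the same pair. Mouse Trav segments lie on chromosome 14, where part of the locus is duplicated (segments marked d and n), and Trbv segments lie on chromosome 6.

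The total count per library ranged from 59.6 M (Ag replicate 3) to 449 M in Ag and from 332 M to 639 M in Ag+Costim. These are counts estimated from read coverage, so they are not numbers of reads. The libraries of Ag stood apart from each other. A count was present on 86.5%, 39.2%, 93.2%, 72.8% and 37.3% of all genes in Ag replicates 1 to 5, against 51.7% to 54.6% in the 5 Ag+Costim libraries. Transcripts of the CD8+ T cell list were present in every library, with Cd8b1 between 896 and 1824 CPM (the count relative to the TMM-scaled library size) and Trac between 601 and 1175 CPM. The summed globin and Alas2 list of erythroid cells reached 1102 CPM in Ag replicate 3, against 14.7 to 125 CPM in the other Ag libraries and 3.80 to 39.4 CPM in Ag+Costim. The part of these transcripts in the results below was not tested.

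The segments that held most of the counts are shown first, because how alike they are sets what a count on each can mean. The sequences are the last 280 bases of the variable exon of the GENCODE M21 transcripts on GRCm38 (mm10), plus strand, 5′ to 3′. Trav14d-1 (chr14:52855887-52856166) and Trav14n-1 (chr14:53166899-53167178) were identical over this stretch. Trav14-3 (chr14:53763415-53763694) ranked next in counts within the group, and Trav14n-3 (chr14:53370296-53370575) had the highest level among the remaining 6 in Ag. Trav14-1 (chr14:53554279-53554558) is the lowest-numbered member without a d or n mark. Capitals in Trav14d-1 mark bases that differ in at least 1 of the other 3 sequences, and capitals in those mark bases that differ from Trav14d-1.
Trav14d-1 and Trav14n-1: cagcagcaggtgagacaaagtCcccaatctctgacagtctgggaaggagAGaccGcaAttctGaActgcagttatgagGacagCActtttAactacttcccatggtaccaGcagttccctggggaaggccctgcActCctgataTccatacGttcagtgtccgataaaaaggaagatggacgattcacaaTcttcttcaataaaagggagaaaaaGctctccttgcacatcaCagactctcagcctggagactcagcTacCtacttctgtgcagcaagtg
Trav14-3: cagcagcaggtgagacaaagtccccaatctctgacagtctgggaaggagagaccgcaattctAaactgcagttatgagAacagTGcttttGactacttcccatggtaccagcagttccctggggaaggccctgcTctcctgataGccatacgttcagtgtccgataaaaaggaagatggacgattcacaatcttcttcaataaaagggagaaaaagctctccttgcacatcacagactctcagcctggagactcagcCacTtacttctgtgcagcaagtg
Trav14n-3: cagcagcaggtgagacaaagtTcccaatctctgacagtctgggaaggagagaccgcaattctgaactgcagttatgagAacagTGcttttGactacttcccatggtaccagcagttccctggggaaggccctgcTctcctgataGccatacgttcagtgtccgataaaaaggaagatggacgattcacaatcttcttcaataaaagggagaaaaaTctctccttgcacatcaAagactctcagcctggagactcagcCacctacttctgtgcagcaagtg
Trav14-1: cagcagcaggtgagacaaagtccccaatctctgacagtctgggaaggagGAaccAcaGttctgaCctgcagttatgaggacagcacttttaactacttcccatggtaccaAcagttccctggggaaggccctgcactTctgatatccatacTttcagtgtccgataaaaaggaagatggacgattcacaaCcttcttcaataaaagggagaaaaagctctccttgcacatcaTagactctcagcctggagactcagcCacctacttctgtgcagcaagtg

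Against Trav14d-1, 9 of 280 bases differed in Trav14-3 (96.8% identity), 10 in Trav14n-3 (96.4%) and 11 in Trav14-1 (96.1%). Trav14-3 and Trav14n-3 shared 275 of the 280 bases. The Trav14d-1 and Trav14n-1 transcripts of 415 bases were identical over their whole length, and Trav14d-2 and Trav14n-2 also matched at all 280 bases. No alignment can tell a read within such a pair apart. Of the 316 windows of 100 bases in Trav14d-1, 13 were also present in Trav14-3 and 0 in Trav14-1, and of its 266 windows of 150 bases 0 were present in any Trav14 transcript other than that of Trav14n-1. Shorter stretches were shared more widely. Of its 366 windows of 50 bases, 94 were present in Trav14-3, 97 in Trav14d-2, 76 in Trav14d-3-dv8 and 4 in Trav14-1. Counts of single members are therefore uncertain, most of all within the identical pairs, and the group was summed for the shares.

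For the beta chain, the functional members Trbv12-1 (chr6:41113788-41114067) and Trbv12-2 (chr6:41119085-41119364) are shown, since they divide nearly all of the Trbv12 counts. Capitals mark the bases at which the pair differs.
Trbv12-1: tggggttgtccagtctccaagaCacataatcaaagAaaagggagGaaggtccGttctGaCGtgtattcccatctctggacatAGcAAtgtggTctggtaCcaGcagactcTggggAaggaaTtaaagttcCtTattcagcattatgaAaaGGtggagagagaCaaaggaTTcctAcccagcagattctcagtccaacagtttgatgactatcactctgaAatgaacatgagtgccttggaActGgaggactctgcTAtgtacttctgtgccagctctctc
Trbv12-2: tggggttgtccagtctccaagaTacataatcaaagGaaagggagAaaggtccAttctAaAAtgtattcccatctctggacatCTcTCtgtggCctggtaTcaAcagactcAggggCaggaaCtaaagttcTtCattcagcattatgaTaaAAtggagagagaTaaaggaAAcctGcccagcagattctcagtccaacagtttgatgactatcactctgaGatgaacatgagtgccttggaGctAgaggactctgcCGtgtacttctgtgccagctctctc

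The pair differed at 31 of 280 bases (88.9% identity), and 0 of the 290 windows of 100 bases in Trbv12-1 were present in Trbv12-2. The third member, Trbv12-3, is a pseudogene. RefSeq lists Trbv12-1 and Trbv12-2 under older Vβ5 names.

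The OT-I segments made up nearly all variable segment counts in both groups, and the share differed little between the 5 Ag+Costim libraries and widely between the 5 Ag libraries. Counts outside the Trav14 and Trbv12 groups were 2.24%, 0.437%, 6.42%, 0.966% and 0.157% of all variable segment counts in Ag replicates 1 to 5. In Ag+Costim they were 0.555%, 0.443%, 0.518%, 0.435% and 0.495%. Ag replicates 1, 3 and 4 were above every Ag+Costim library, Ag replicate 5 was below every one, and Ag replicate 2 lay among them. The mean OT-I share of the 5 Ag libraries was 98.0% ± 2.57 (SD, n = 5), and that of the 5 Ag+Costim libraries 99.5% ± 0.0505. The difference of 1.55 percentage points did not pass a two-sided exact permutation test over libraries (p = 0.167, Benjamini-Hochberg adjusted over 3 shares 0.246), for which the smallest possible p is 0.00794.

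The alpha chain showed the wider spread. The Trav14 group held 91.6%, 98.4%, 70.1%, 95.8% and 99.3% of Trav counts in Ag replicates 1 to 5 and 97.6%, 97.8%, 97.7%, 97.9% and 97.6% in Ag+Costim replicates 1 to 5. Ag replicate 3 was the lowest library, with 6744 of 9618 Trav counts on the group and a 95% Wilson interval of 69.2% to 71.0%. The mean was 91.0% ± 12.1 (SD, n = 5) for Ag libraries and 97.7% ± 0.102 for Ag+Costim libraries, and the difference of 6.67 points gave an exact permutation p of 0.246 (adjusted 0.246). In the beta chain, counts outside the Trbv12 group were 0.933%, 0.255%, 1.46%, 0.455% and 0.0822% of Trbv counts in Ag and 0.208% to 0.305% in Ag+Costim. The same 3 Ag libraries had the highest values, and the difference of 0.385 points in the Trbv12 share gave an exact permutation p of 0.183 (adjusted 0.246).

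**Figure D1:**
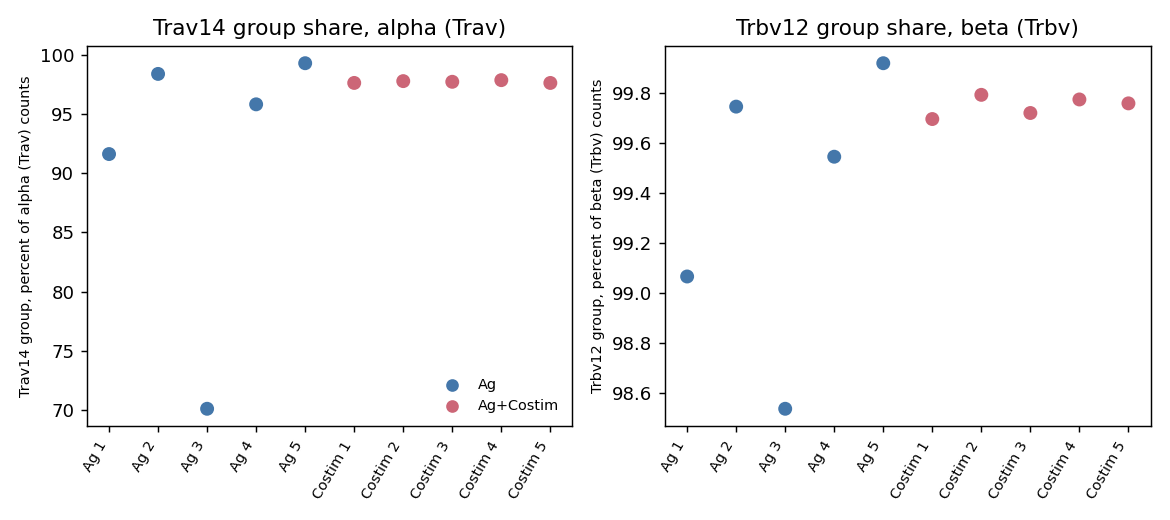
Share of the Trav14 group among alpha counts and of the Trbv12 group among beta counts, in percent (vertical axes, which do not start at 0), with 1 point per library. The Ag+Costim points lie between 97.6% and 97.9% for alpha, while the Ag points run from 70.1% to 99.3%.

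The direction of the difference rested on which Ag libraries entered. With the 3 Ag libraries that had a count on more than 60% of all genes (replicates 1, 3 and 4) left out together, a choice made after the data were seen, the mean OT-I share of the 2 Ag libraries left was 99.7% and that of Ag+Costim 99.5%, a difference of -0.192 points (exact permutation p = 0.0952, with a smallest possible p of 0.0476). The Trav14 difference became -1.12 points (exact permutation p = 0.0476) and the Trbv12 difference -0.0839 points (exact permutation p = 0.238). Without Ag replicate 3 alone, the differences were 0.460, 1.44 and 0.179 points for all segments, Trav14 and Trbv12. Without Ag replicate 5 they were 2.03, 8.73 and 0.524 points and the exact permutation p values fell to 0.0397, 0.0476 and 0.0238. Without Ag replicate 2 they were 1.96, 8.51 and 0.480 points with exact permutation p values of 0.0476, 0.0476 and 0.0714.

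The levels of the OT-I segments varied less between Ag libraries, relative to their size, than those of the other segments. The summed level of the Trbv12 group was 1300, 1120, 632, 1785 and 1248 CPM in Ag replicates 1 to 5 and 905, 856, 1091, 853 and 854 CPM in Ag+Costim replicates 1 to 5. The Trav14 group stood at 256, 170, 95.0, 272 and 166 CPM in Ag and at 121, 111, 144, 102 and 112 CPM in Ag+Costim. For both groups Ag replicate 3 was the lowest library of its group and Ag replicate 4 the highest, and the ranges of Ag and Ag+Costim overlapped. In these bulk samples, fewer cells of a type and less RNA per cell cannot be told apart. The 119 other Trav segments together reached 23.4, 2.79, 40.5, 11.9 and 1.20 CPM in Ag and 2.24 to 3.36 CPM in Ag+Costim. The 32 other Trbv segments together reached 12.2, 2.87, 9.37, 8.17 and 1.03 CPM in Ag and 1.79 to 3.07 CPM in Ag+Costim. Ag replicates 1, 3 and 4 were above the whole Ag+Costim range in both sums, and Ag replicate 5 was below it in both.

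**Figure D2:**
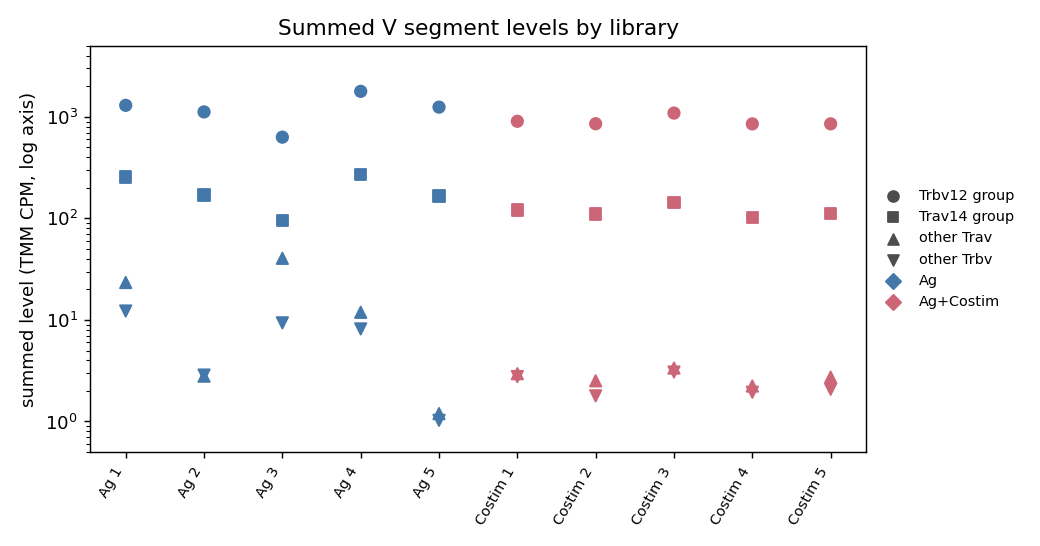
Summed levels of the Trbv12 group, the Trav14 group, the other Trav and the other Trbv segments in each library, in TMM-scaled CPM on a log axis. The other Trav sum spans 1.20 to 40.5 CPM over the Ag libraries and 2.24 to 3.36 CPM over the Ag+Costim libraries.

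Most alpha counts lay on the identical pair, and Trav14-1 held 0.109% to 2.18% of the Trav14 counts. Trav14d-1 and Trav14n-1 together held 68.5%, 83.8%, 80.9%, 80.5% and 84.2% of the Trav14 counts in Ag replicates 1 to 5 and 83.3% to 85.7% in Ag+Costim, with Trav14n-1 the higher of the pair in all 10 libraries, from 40.6% against 40.2% in Ag replicate 3 to 38.6% against 29.8% in Ag replicate 1. Trav14-3 held 12.1% to 15.1% in all 10 libraries. The remaining 6 members (Trav14-1, Trav14-2, Trav14d-2, Trav14d-3-dv8, Trav14n-2 and Trav14n-3) held 18.8%, 3.12%, 4.03%, 6.64% and 0.952% in Ag and 2.21% to 2.49% in Ag+Costim. The high library was Ag replicate 1, where Trav14n-3 stood at 11.8 CPM, Trav14-2 at 10.3 CPM and Trav14d-2 at 9.23 CPM, against at most 0.916 CPM for any of the 3 in Ag+Costim. All counts of Trav14d-1 and of Trav14n-1 were on the transcripts of 415 bases, and the transcripts of 340 bases of both segments had 0 counts in every library.

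In the beta chain Trbv12-1 held 95.5%, 99.6%, 98.9%, 98.7% and 99.9% of the Trbv12 counts in Ag and 99.5% to 99.7% in Ag+Costim. Trbv12-2 held 4.50%, 0.426%, 1.11%, 1.32% and 0.115% in Ag and 0.296% to 0.464% in Ag+Costim, so Ag replicate 1 was again the high library. Trbv12-3 had counts in Ag replicates 1, 3 and 4, at 0.0310, 0.169 and 0.0588 CPM, and 0 in the other 7 libraries, where a floor of 3 counts corresponds to 0.00515 to 0.00971 CPM.

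**Figure D3:**
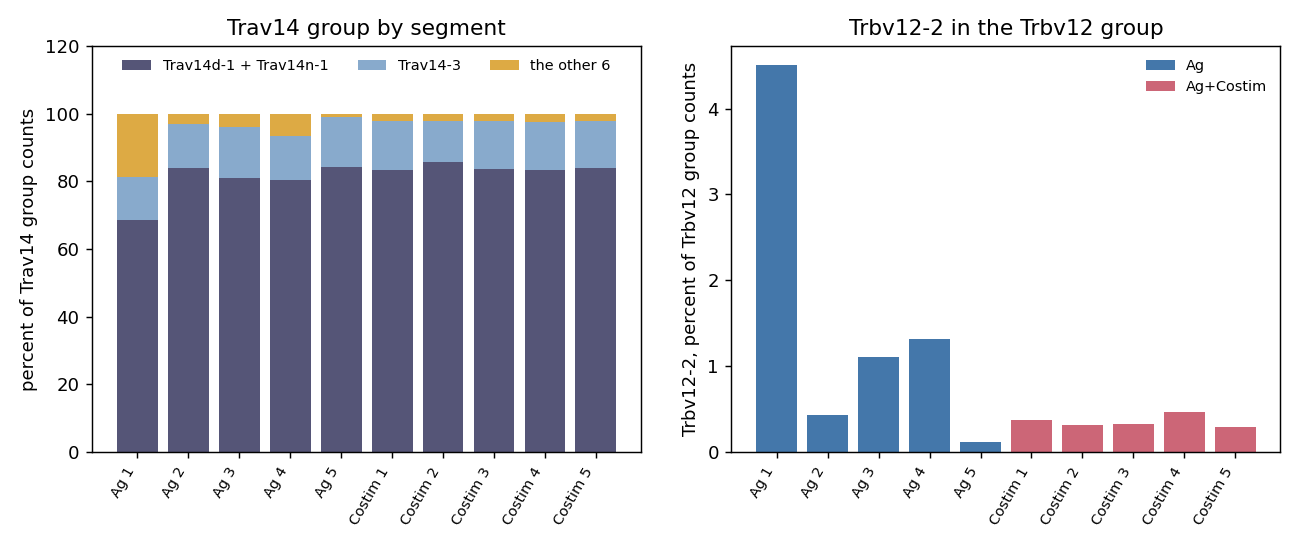
Left, the Trav14 counts of each library divided among Trav14d-1 plus Trav14n-1, Trav14-3 and the other 6 members, in percent. Right, Trbv12-2 as a percent of the Trbv12 counts, which reaches 4.50% in Ag replicate 1 and 0.296% to 0.464% in Ag+Costim.

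Per count of the constant segments, the beta chain varied little and the alpha chain more. Trbc1 and Trbc2 encode the constant part of the beta chain and Trac that of the alpha chain. For every 100 Trbc counts there were 25.8, 25.2, 25.5, 29.0 and 24.5 Trbv12 counts in Ag and 25.1 to 26.0 in Ag+Costim. For every 100 Trac counts there were 25.7, 15.2, 15.8, 23.2 and 14.2 Trav14 counts in Ag and 13.7, 12.7, 14.7, 11.5 and 12.7 in Ag+Costim. Ag replicates 1 and 4 were the high libraries for alpha, and the lowest Ag library (14.2) lay below the highest Ag+Costim library (14.7). The 3 Ag libraries with many genes detected were thus not alike here, since Ag replicate 3 stood with replicates 2 and 5. Divided by segment length, Trav14 counts were 18.7, 14.4, 14.3, 14.5 and 12.6 per 100 Trbv12 counts in Ag and 11.3 to 12.7 in Ag+Costim. Trbc1 made up 20.2% to 23.7% of the Trbc counts in all 10 libraries.

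**Figure D4:**
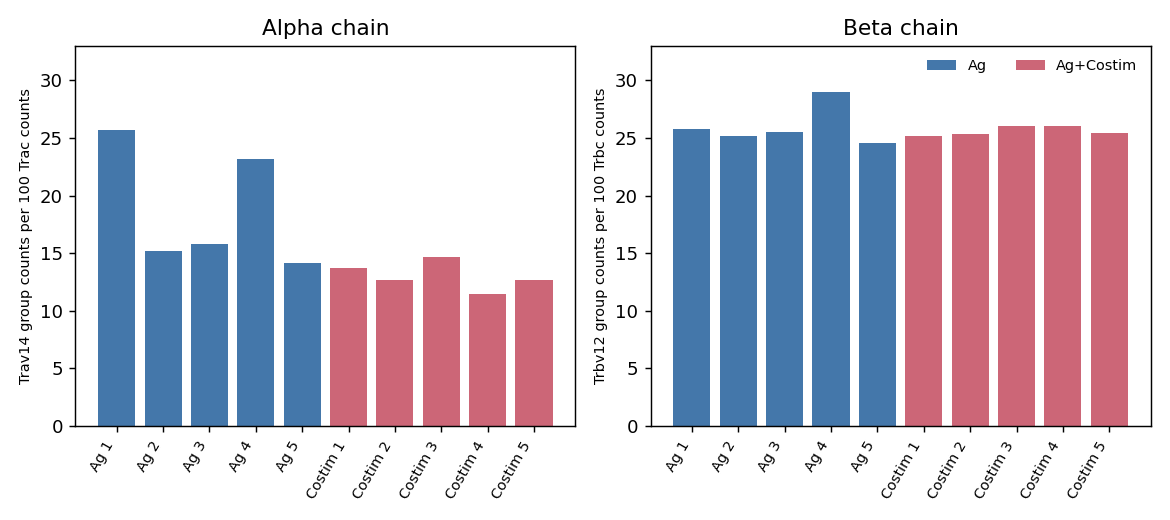
Trav14 group counts per 100 Trac counts (left) and Trbv12 group counts per 100 Trbc1 and Trbc2 counts (right), 1 bar per library. The beta bars lie between 24.5 and 29.0 and the alpha bars between 11.5 and 25.7.

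A single joining segment led the counts of each chain. Traj33 and Trbj2-7 are the joining segments known for the OT-I chains. Traj33 ranked 1 among the 60 Traj segments in all 10 libraries, with 37.6% to 43.2% of Traj counts in Ag and 30.5% to 38.2% in Ag+Costim. Trbj2-7 ranked 1 among the 14 Trbj segments in all 10 libraries, with 33.9% to 50.6% of Trbj counts in Ag and 35.0% to 41.9% in Ag+Costim. Both also ranked 1 when counts were divided by segment length. Segments of the Trbj1 cluster held 26.4% to 47.5% of the Trbj counts. The joining segments are short, and how reads were divided between them and unspliced transcripts of the locus was not tested.

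The other segments were detected broadly in some libraries and narrowly in others. Of the 151 other segments, 148, 31, 136, 131 and 23 had a count in Ag replicates 1 to 5, and 85, 80, 99, 76 and 83 had one in Ag+Costim. The order of the Ag libraries followed that of all genes with a count except that replicates 1 and 3 changed places. Of the 151, 4 had a count in every library, namely Trav15-1-dv6-1, Trav6n-7, Trbv11 and Trbv31. Levels per segment were low. The highest value of any other segment in any library was 3.17 CPM, for Trav6-5 in Ag replicate 3.

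**Figure D5:**
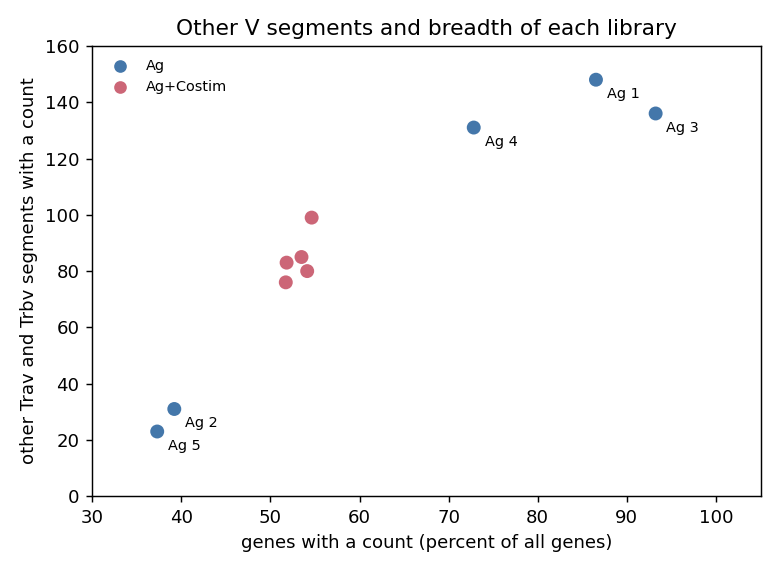
Number of the 151 other Trav and Trbv segments with a count (vertical axis) against the percent of all genes with a count (horizontal axis), 1 point per library. Ag replicates 1, 3 and 4 lie at 131 to 148 segments, the Ag+Costim libraries at 76 to 99 and Ag replicates 2 and 5 at 31 and 23.

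The leading other alpha segments, by mean share over the 10 libraries, were Trav6-5, Trav6n-5, Trav6d-5, Trav22 and Trav2. The rank of the first 4 rested on Ag replicate 3, and without it they ranked 12, 9, 36 and 22 while Trav2 ranked 1. Trav6-5 stood at 0.470, 0, 3.17, 0.288 and 0 CPM in Ag and at 0.0485 to 0.0652 CPM in Ag+Costim. Its duplicates Trav6n-5 and Trav6d-5 reached 2.82 and 2.28 CPM in Ag replicate 3, where the pseudogene Trav22 reached 1.96 CPM. All 4 thus had their highest value in Ag replicate 3, whereas Trav2 was highest in Ag replicate 2, at 0.447 CPM. The leading other beta segments were Trbv13-2, Trbv31, Trbv11, Trbv13-3 and Trbv17, of which the last 2 ranked 7 and 9 without Ag replicate 3. Trbv13-2, which lies between Trbv12-2 and Trbv12-3 on chromosome 6, stood at 1.40, 0, 1.30, 1.15 and 0.0216 CPM in Ag and at 0.223 to 0.295 CPM in Ag+Costim.

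Trbv11, a pseudogene upstream of Trbv12-1 (chr6:41107044-41107303), was detected in every library. It stood at 0.534, 0.734, 0.493, 0.612 and 0.582 CPM in Ag and at 0.172, 0.245, 0.298, 0.255 and 0.245 CPM in Ag+Costim, so that the groups did not overlap. Ag replicates 2 and 5, low for most other segments, were not low here. Its log2 fold change of Ag+Costim over Ag was -1.28 (SE 0.63) with an adjusted p of 0.283 in edgeR's quasi-likelihood test, while DESeq2 and limma voom called it lower (adjusted p = 4.39e-07 and 0.00522). Trav15-1-dv6-1 was the other segment without overlap, at 0.132 to 0.509 CPM in Ag and 0.0404 to 0.114 CPM in Ag+Costim (log2 fold change -1.72, SE 0.80, edgeR adjusted p = 0.272), and it was also called lower by DESeq2 (adjusted p = 0.0227) and limma voom (0.00903). Of the 79 segments tested, 0 were higher and 2 lower in Ag+Costim without overlap, against 4.48% and 1.13% of all 24262 genes tested. Averaged over segments, the level of the other segments per kilobase was 0.723, 0.104, 0.961, 0.413 and 0.0329 CPM for functional ones and 0.235, 0.0920, 0.741, 0.139 and 0.0798 CPM for pseudogenes in Ag replicates 1 to 5. In Ag+Costim these were 0.0825 to 0.130 CPM and 0.0382 to 0.0585 CPM. The functional segments were the higher class in every library except Ag replicate 5. In Ag replicates 2 and 5 the pseudogene mean rested mostly on Trbv11, with 233 and 216 counts. The pseudogenes with the next most counts there were Trav15-3 with 6 and Trav22 with 34.

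Gene by gene, no variable segment passed the threshold between Ag+Costim and Ag in edgeR. Of the 163 segments, 79 passed the filter on low counts (all 9 Trav14, 2 Trbv12, 50 other Trav and 18 other Trbv) and 84 were not tested. At a Benjamini-Hochberg adjusted p under 0.05, 0 of the 79 were called, as were 0 of all 24262 genes tested (0.00%). At an unadjusted p under 0.05 there were 12 of the 79 segments and 4501 of the 24262 genes. Without Ag replicate 1 there were 3 of 80 segments and 3171 of 24586 genes. Without Ag replicate 4 there were 5 of 82 segments and 3691 of 25053 genes. Without Ag replicate 5 there were 24 of 104 segments and 9197 of 27169 genes. With any 1 Ag+Costim library left out, 6 to 11 segments and 2766 to 3204 genes were at that p. The 12 were the 9 Trav14 members, Trbv12-2, Trav12n-3 and Trav6-7-dv9. DESeq2's Wald test called 20 of the 159 segments to which it gave a p-value, and 8046 of 49567 such genes. Those 8046 were 22.3% of the 36117 genes to which it gave an adjusted p. Limma voom with quality weights called 50 of 79 segments, against 52.7% of genes. All of those segments were lower in Ag+Costim, where the shares of genes called lower were 19.7% and 26.8%, and 0 were higher, against 2.57% and 25.9% of genes. The 20 of DESeq2 comprised all 9 Trav14 members, Trbv12-2, 9 other Trav and 1 other Trbv segment. Of the 159 segments with a p-value from it, 34 had no adjusted p.

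The fitted change was below 0 for all 79 segments tested, with a median of -1.93 on the log2 scale against -0.32 for all genes tested. With the replicate number as a block, 68 were below 0 and 11 above. The medians were then -1.26 for the segments and -0.043 for all genes. Without the filter on low counts, 156 of 163 segments were below 0 with a median of -1.97, and the median of all 54224 genes was -2.14. Among the OT-I segments, Trbv12-1 had a log2 fold change of -0.40 (SE 0.24, edgeR adjusted p = 0.334) and Trbv12-2 one of -2.56 (SE 0.81, edgeR adjusted p = 0.227). Trav14d-1 had -0.59 (SE 0.23), Trav14n-1 -0.62 (SE 0.25) and Trav14-3 -0.67 (SE 0.23), with edgeR adjusted p values of 0.257, 0.260 and 0.241. The 6 lesser Trav14 members ranged from -2.94 for Trav14-2 (SE 1.05) to -2.03 for Trav14d-3-dv8 (SE 0.78), with Trav14n-3 at -2.64 (SE 0.71) and the lowest edgeR adjusted p of the group, 0.194. These folds rested in part on Ag replicate 1. Without it they were -1.09 for Trav14-1, -1.79 for Trav14-2, -0.78 for Trav14d-2, -1.06 for Trav14d-3-dv8, -1.64 for Trav14n-2 and -1.79 for Trav14n-3, and that of Trbv12-2 was -1.50. The identical pairs Trav14d-1 with Trav14n-1 and Trav14d-2 with Trav14n-2 are not separate evidence. Other Trav14 members share shorter stretches, so their folds may not be independent either.

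The partner genes of the receptor were taken from fixed lists. Of the 7 constant segments, 0 passed the edgeR test, as did 0 of all 24262 genes tested. Trac was at 994, 1120, 601, 1175 and 1175 CPM in Ag and 874 to 980 CPM in Ag+Costim (log2 fold change -0.17, SE 0.19, edgeR adjusted p = 0.592). Trbc1 had -0.40 (SE 0.23, edgeR adjusted p = 0.318) and Trbc2 -0.38 (SE 0.23, edgeR adjusted p = 0.336). Limma voom called both lower (adjusted p = 0.00587 and 0.0110), and DESeq2 called neither (0.0714 and 0.0701). The 4 CD3 chains, which carry the receptor's signal into the cell, had log2 fold changes of -0.34 for Cd3d, -0.14 for Cd3e, -0.41 for Cd3g and -0.083 for Cd247. The coreceptor chains Cd8a and Cd8b1 had -0.13 and -0.12. The direction for Trac, Cd3e, Cd247, Cd8a and Cd8b1 turned positive when no filter was applied to low counts, and that for Cd247 and Cd8b1 also without Ag replicate 5. None of these 6 CD3 and coreceptor genes passed the edgeR test, and DESeq2 called none of them. Limma voom called only Cd3d and Cd3g of the 6, both lower (adjusted p = 0.0300 and 0.00612), where it called 26.8% of all genes lower.

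Constant segments of the gamma and delta chains were read beside them, and the list of 6 gamma delta T cell genes summed to 88.8 to 133 CPM in Ag and 93.4 to 126 CPM in Ag+Costim. Trdc, the delta constant segment, stood at 72.6 to 115 CPM in Ag and 76.1 to 108 CPM in Ag+Costim, with a log2 fold change of 0.072 (SE 0.17, edgeR adjusted p = 0.796) whose sign turned under the other 3 scalings in edgeR and in DESeq2. Tcrg-C1 and Tcrg-C2, gamma constant segments, were at or under 1.61 CPM in all libraries. Their log2 fold changes were -1.56 (SE 0.73, edgeR adjusted p = 0.273) and -1.43 (SE 0.70, edgeR adjusted p = 0.282), and both were called lower by DESeq2 (adjusted p = 0.0253 and 0.0437) and by limma voom (0.00211 and 0.00456). Tcrg-C4 was at 5.57 to 17.1 CPM, with a log2 fold change of 0.36 (SE 0.27, edgeR adjusted p = 0.408), and was called higher by limma voom (log2 fold change 0.98, adjusted p = 0.00109) but not by DESeq2 (log2 fold change 0.26, adjusted p = 0.420). Trdc lies within the alpha locus, and how its counts divide between delta chain transcripts and other transcripts of that region was not tested.

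The recombination genes were low. Rag1 stood at 0.835, 0.766, 6.00, 0.278 and 0 CPM in Ag and at 0.0944 to 0.521 CPM in Ag+Costim. Rag2 was at 1.23 CPM in Ag replicate 3 and at most 0.142 CPM in every other library. Dntt, which adds bases at the joints, was at 1.96, 0, 0.873, 0.922 and 0 CPM in Ag and 0.0343 to 0.0841 CPM in Ag+Costim. Rag1 and Rag2 were thus highest in Ag replicate 3 and Dntt in Ag replicate 1, and Dntt was at 0 in Ag replicates 2 and 5. Ag replicate 3 had the largest share of counts outside the OT-I groups. It also had the lowest total count and a count on the most genes, and a link between these was not tested.

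Antibody variable segments, which B cells rearrange and T cells do not, were summed in the same libraries for comparison. The 348 Ighv, Igkv and Iglv genes together stood at 55.4, 5.74, 238, 107 and 6.999 CPM in Ag replicates 1 to 5 and at 24.0 to 75.6 CPM in Ag+Costim. Ag replicate 3 was the highest library and Ag replicates 2 and 5 were the lowest of the Ag libraries, as in the other Trav sum, where those 2 stood in the opposite order. The B cell list of 8 genes, none of them at 0 in every library, summed to 662 to 1366 CPM in Ag and 572 to 863 CPM in Ag+Costim, with Ighm alone at 602 to 1038 CPM and 500.3 to 737 CPM. Pax5 was at 1.28, 0, 4.92, 2.05 and 0 CPM in Ag and at 0.0192 to 0.394 CPM in Ag+Costim. The 5 genes of the CD4 T cell list summed to 3.80 to 27.3 CPM in Ag and 3.34 to 8.37 CPM in Ag+Costim, with Cd4 itself at 1.69, 0.0347, 5.07, 0.714 and 2.70 CPM in Ag. The 3 genes of the plasma cell list summed to 1.47 to 25.0 CPM in Ag and 7.22 to 18.9 CPM in Ag+Costim, and the 6 of the myeloid list to 47.8 to 140 CPM and 81.2 to 172 CPM. The 3 NK cell genes summed to 2.09 to 20.1 CPM in Ag and 0.537 to 2.22 CPM in Ag+Costim. The part of these cells in the other segments' counts was not tested.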

How the data were processed

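Poly(A) RNA of sorted cells was amplified with SMART-Seq v4 and sequenced by the study. The authors aligned reads to mm10 with HISAT2 2.1.0, used SAMtools 1.9 and estimated gene and transcript abundance with StringTie 2.1.0. What the authors deposited were whole-number estimated counts, also called expected counts, which StringTie derives from coverage, and no normalization had been applied. Strand use in counting was not given in the sources used here. Of the table's entries, 55536 were matched to GENCODE M21, and 26345 other entries, holding 0.0458% to 0.308% of counts, were left out.

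Members and gene lists were chosen with earlier results of these data known. The genes given by name were the Trav14 and Trbv12 members, the 5 other segments of each chain with the highest mean share over the 10 libraries, any past the edgeR threshold, and fixed lists of constant, joining, CD3, coreceptor and recombination genes. Further segments with a count in every library, without overlap or at an unadjusted p under 0.05 were added after their values were seen. Shares were compared with two-sided exact permutation tests over 252 assignments of libraries. Genes were tested with edgeR 4.0.16 (R 4.3.3) by its quasi-likelihood test after filterByExpr and TMM scaling, with Benjamini-Hochberg adjustment over all genes tested at 0.05. The fit was also run on simulated data with the same dispersion for all genes and no difference in breadth between libraries. That run therefore does not show how well the fit detects changes in the present libraries. Alternatives were other scalings, no filter, DESeq2 1.42.0, limma 3.58.1, summed groups, other definitions of the shares and each library left out. P-values measure the spread between these libraries, which may be partly technical. Intervals and floors of 3 counts cover counting error at most. The intervals treat coverage-derived counts as independent reads, and amplified reads are not independent molecules. Deposited tables of splicing events, sample information and sequencing lanes were not used.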

Additional observations from a re-analysis of the deposited data

Results flagged for a closer look

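Among 106 groups of 5 libraries examined, 17 held a library whose gap to its nearest neighbour was large for the range of the group (Dixon's criterion). For independent, normally distributed values this happens in about 1 in 20 groups. The groups here overlapped, such as Trbv12-1 with the Trbv12 group, and the CPM were not put on a log scale, so the 17 cannot be weighed against that rate. Of the 17, 10 were in Ag and 7 of these were Ag replicate 3. In that library the Trav14 share of Trav counts was 70.1%, and Trav6-5, Trav6n-5, Trav6d-5 and Trav22 stood at 3.17, 2.82, 2.28 and 1.96 CPM, with Rag1 at 6.00 CPM and Rag2 at 1.23 CPM. Ag replicate 1 stood apart for Trav14d-2, at 9.23 CPM, and for Trbv12-2, at 4.50% of the Trbv12 counts. Ag replicate 4 stood apart for Trbv12 counts per 100 Trbc counts, at 29.0.

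In Ag+Costim, 7 values stood apart, within narrow ranges. Replicate 3 was the high library for Trbv12-1 (1087 CPM), the Trbv12 group (1091 CPM), Trac (980 CPM), Trbj2-7 (81.4 CPM) and Cd247 (280.3 CPM). Trav6d-5 was at 0 CPM in replicate 4, and Rag2 was at 0.0388 CPM in replicate 1. The causes of these values were not tested.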

How the results depend on the processing

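The 3 differences in share kept their direction when pseudogenes were left out, when counts were divided by segment length and on the log odds scale. With only Trav14-1 and Trbv12-1 counted as OT-I, the difference over all segments was 4.28 points (exact permutation p = 0.0397). The difference in the Trav14 share was then -0.377 points. Trav14-1 held only 0.109% to 2.18% of the Trav14 counts, so that definition placed nearly all Trav14 counts outside OT-I. The resulting share over all segments thus depended mostly on the ratio of alpha to beta counts. It cannot show whether the OT-I share differed between the groups. With the 3 Ag libraries of broad detection left out, the differences were -0.192, -1.12 and -0.0839 points for all segments, Trav14 and Trbv12. Leaving out 1 library at a time gave 0.460 to 2.03, 1.44 to 8.73 and 0.179 to 0.524 points, with p below 0.05 without Ag replicate 5 for all 3 shares and without Ag replicate 2 for all segments and Trav14. EdgeR called 0 genes and 0 segments under every scaling, filter and library left out. DESeq2 called 8046 of 49567 genes and 20 of 159 segments with a p-value. Limma voom with quality weights called 12776 of 24262 genes and 50 of 79 segments, and the cause was not tested. The median change of all genes moved from -0.32 to -0.48, -0.65 and -0.58 with DESeq2 factors, total counts and upper quartile factors.

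Without the filter on low counts, the log2 fold change was 0.10 for Trac, 0.13 for Cd3e, 0.19 for Cd247, 0.13 for Cd8a and 0.16 for Cd8b1. For Trdc it was -0.060 with DESeq2 factors, -0.18 with total counts, -0.16 with upper quartile factors and -0.052 in DESeq2. Leaving out 1 library at a time gave -0.21 to 0.023 for Cd247 and -0.24 to 0.011 for Cd8b1, with both positive without Ag replicate 5.

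Same-numbered libraries of the 2 groups did not deviate together (correlations from -0.289 to 0.169), so the numbers were not taken as pairs. With the replicate block, edgeR called 0 genes and 0 segments, with 2419 genes and 1 segment at an unadjusted p under 0.05. The exact sign-flip test with the replicate block gave 0.25, 0.312 and 0.188 for the 3 shares, where 0.0625 is the smallest p possible. The floor of 3 counts was highest in Ag replicate 3, at 0.0423 CPM. The number of segments at an unadjusted p under 0.05 ranged from 3 to 24 with 1 library left out, and that of genes from 2766 to 9197.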
